A study of Rattus norvegicus with 9 samples.

Results

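The transforming growth factor beta (TGF-beta) ligands, their receptors and a group of secreted proteins of the same circuit were followed in rat ventral midbrain and in cultures grown from it. The set holds 8 named genes: the ligands Tgfb1, Tgfb2 and Tgfb3, the receptors Tgfbr1 and Tgfbr2, and the matricellular genes Ccn1, Ccn2 and Thbs1. Array probe sets were assigned by symbol, and only probe sets with a single symbol counted. Of the 8 genes, 6 were measured this way, on 8 probe sets, among 10411 genes and 15866 probe sets in all. The annotation used here pairs no probe set with Thbs1 or Tgfbr2, so these genes have no value. The genes were chosen by name with measured values of these arrays in view, among them the Ccn2 levels that part the culture arrays. Their own differences are therefore given as a description, with no p.

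The series compared primary cultures of rat mesencephalon (MesPC, 6 arrays) with the tissue itself at embryonic day 11 (MesE11, 3 arrays). The labels name no strain, genotype or treatment. Embryos of 4 pregnant rats were mixed into 3 groups, and from each group the ventral midbrain was either pooled as tissue or dissociated, plated in duplicate and kept for 9 days in vitro. Each tissue array therefore stands for pooled embryos. The labels speak of 3 independent culture samples, while 6 culture arrays are listed, and no label says which arrays share an embryo group. The p-values below set the difference of group means against the spread between these arrays. Some arrays may be repeats of 1 culture, so this spread need not be that between independent cultures.

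The deposited values are log2 intensities per probe set, made by the authors with RMA. The level of one probe set cannot be set against that of another. Culture arrays 1 to 3 stood apart from culture arrays 4 to 6: over all probe sets, which are no independent points, Pearson's r reached 0.997 to 0.998 inside either set and 0.982 to 0.987 across the sets. Among tissue arrays it was 0.995 to 0.997. Fibroblast markers stood higher in culture in 12 of 14 cases and lower in 1, Thy1. That list averaged 9.90 to 10.12 on the log2 scale in culture, against 7.83 to 8.02 in tissue. Neuron markers were lower in 5 of 9 cases and higher in 0, and averaged 10.34 to 10.55 (culture arrays 1 to 3) and 11.39 to 11.45 (culture arrays 4 to 6), against 12.17 to 12.25 in tissue. Astrocyte markers were higher in 6 of 10 cases and lower in 0, and erythroid markers lower in 4 of 4, at 6.94 to 7.42 in culture against 11.24 to 11.63 in tissue. Th, tyrosine hydroxylase, averaged 8.45 in culture and 11.53 in tissue, so the dopaminergic marker of the labelled region was bright in the tissue arrays. In a mixed sample, more cells of a type and more RNA per cell cannot be told apart.

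As background, TGF-beta is secreted in a latent form, bound to its own propeptide and to latent TGF-beta binding proteins in the matrix. Integrins, proteases and thrombospondin 1, the product of Thbs1, can release it. The free ligand binds the type II receptor, encoded by Tgfbr2, which recruits and phosphorylates the type I receptor, encoded by Tgfbr1, and this in turn phosphorylates the transcription factors Smad2 and Smad3. Ccn1 and Ccn2, formerly Cyr61 and Ctgf, encode secreted matricellular proteins that bind integrins and matrix. Both are textbook targets of the Hippo pathway effector Yap with its DNA-binding partners, the Tead factors, and Ccn2 is also a classical target of TGF-beta. In the ventral midbrain, TGF-beta is known as a factor that promotes dopaminergic neurons.

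The stretches upstream of Ccn2 and Ccn1 are shown first, because these paralogs share regulators in the textbook account. Each is the 250 bases before the RefSeq transcript start, written 5′ to 3′ on the strand of the gene from the GRCr8 assembly, at chr1:22624615-22624864 (minus strand) for Ccn2 and chr2:237225690-237225939 (minus strand) for Ccn1. Capitals mark matches to GGAATG, the core letters of Tead sites, and to CAGAC, the Smad-binding letters, on either strand.
Ccn2: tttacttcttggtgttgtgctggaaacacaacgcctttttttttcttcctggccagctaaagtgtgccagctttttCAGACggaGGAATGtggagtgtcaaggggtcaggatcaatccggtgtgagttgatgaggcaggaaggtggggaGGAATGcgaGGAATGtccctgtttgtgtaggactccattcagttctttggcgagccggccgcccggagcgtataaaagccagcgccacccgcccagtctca
Ccn1: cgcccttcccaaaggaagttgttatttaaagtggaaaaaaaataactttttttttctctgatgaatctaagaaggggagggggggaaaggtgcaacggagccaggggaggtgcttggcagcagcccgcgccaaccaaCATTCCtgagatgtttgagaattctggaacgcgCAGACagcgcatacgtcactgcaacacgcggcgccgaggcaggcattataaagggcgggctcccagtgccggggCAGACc

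The Ccn2 window held 3 matches to the Tead letters, all on the strand of the gene, starting 166, 101 and 92 bases before the transcript start. It also held 1 match to the Smad letters, which starts 174 bases before it. The Ccn1 window held 1 match to the Tead letters, on the opposite strand, and 2 to the Smad letters. Of 33469 windows of the same length, 12.1% held the Tead letters at least once, 0.902% at least 2 times and 0.0807%, or 27 windows, at least 3 times. The Smad letters were found in 42.9% of windows, and 11.5% held 2 or more. The window of Thbs1 held the Tead letters 1 time, 47 bases before the start. The windows of Tgfb1, Tgfb2, Tgfb3, Tgfbr1 and Tgfbr2 held neither, and TGANTCA, the AP-1 letters, was in none of the 8 windows against 6.34% of all. The windows of Tgfb2, Tgfb3 and Tgfbr2 lie wholly inside the annotated gene and that of Tgfbr1 partly, before a transcript start inside it. The bases before the outer end of these genes were not searched in full, whereas the Ccn2 and Ccn1 windows abut the gene. Such matches describe these letters only and show no binding.

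**Figure D1:**
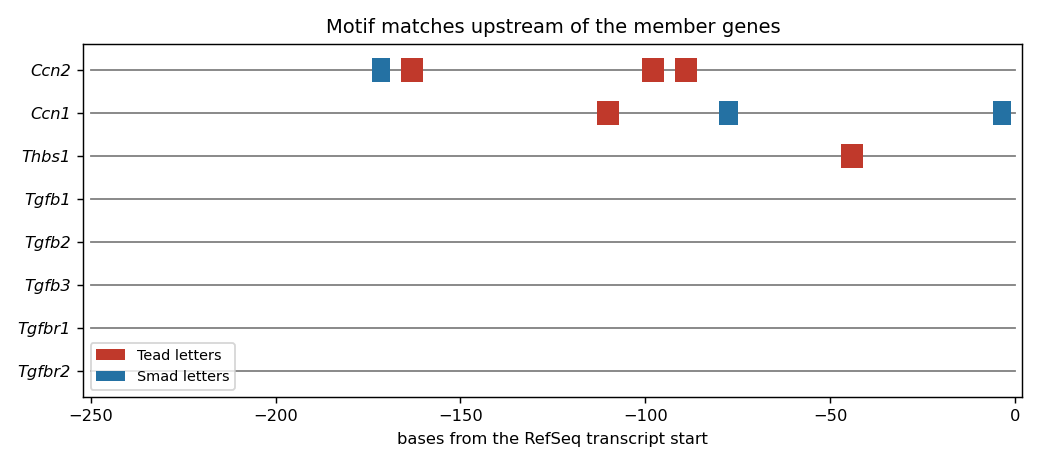
Matches to the Tead letters (red) and the Smad letters (blue) in the 250 bases before the RefSeq transcript start of the 8 genes, one line each, with the distance to the start in bases on the horizontal axis. Ccn2 carries 3 Tead matches and 1 Smad match, Ccn1 carries 1 and 2, and Thbs1 carries 1 Tead match.

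Among the ligands, Tgfb2 read higher in every culture array than in any tissue array, whereas Tgfb1 and Tgfb3 overlapped between the groups. Tgfb2, an isoform found in the developing nervous system, had values of 10.84, 10.88, 11.02, 10.78, 10.74 and 10.57 in culture arrays 1 to 6, against 8.70, 8.50 and 8.45 in the tissue arrays. All culture values lay above all tissue values, and the culture arrays lay close together. Tgfb2 averaged 10.80 ± 0.15 in culture (SD, n = 6) and 8.55 ± 0.13 in tissue (SD, n = 3), a difference of 2.25 ± 0.10 (SE) or 4.77-fold, which ranked 28 among all genes. A further Tgfb2 probe set gave the same direction with a smaller gap. Its values were 10.36, 10.39, 10.45, 9.88, 9.96 and 9.95 in culture, against 8.97, 8.72 and 9.16 in tissue, a difference of 1.22 ± 0.15 or 2.33-fold. Over the mean of both probe sets the difference was 1.74.

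Tgfb1, the isoform best known from immune cells and platelets, read 7.23, 7.36, 7.23, 7.10, 6.97 and 7.12 in culture and 7.23, 7.64 and 7.40 in tissue. The culture values lay at or below the lowest tissue value except in array 2, which lay between tissue values, and the difference was -0.26 ± 0.10. Tgfb3, known for its part in palate fusion, read 7.48, 7.51, 7.37, 6.93, 7.08 and 7.03 in culture and 7.08, 7.14 and 7.18 in tissue. Its values in culture arrays 1 to 3 lay above every tissue value, while those in arrays 4 to 6 lay below the tissue mean, so that the difference of the group means was only 0.10 ± 0.13. Microglia and macrophage markers fell in 6 of 10 cases and rose in 0, and that list averaged 7.15 to 7.33 in culture, against 7.59 to 7.61 in tissue. Of 3 platelet and megakaryocyte markers 1 fell, the platelet chemokine Pf4, by 0.77 ± 0.07, and that list averaged 7.24 to 7.51 in culture, against 7.74 to 7.84 in tissue. Their part in the Tgfb1 values was not tested.

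Tgfbr1, the type I receptor, gave 10.44, 10.17, 10.22, 10.57, 10.39 and 10.44 in culture and 10.58, 10.45 and 10.54 in tissue. The groups overlapped, and the difference was -0.15 ± 0.09, or 1.11-fold lower in culture. A further Tgfbr1 probe set read 5.83 to 6.15 in culture and 6.10 to 6.46 in tissue. The 15 probe sets for bacterial control transcripts spanned 4.90 to 6.68 on these arrays, and this Tgfbr1 probe set stayed inside that span on all 9, so it gives no level above background.

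Ccn2 stood furthest from tissue. It read 11.75, 12.06 and 11.56 in culture arrays 1 to 3 and 10.63, 10.54 and 10.41 in culture arrays 4 to 6, against 7.91, 8.29 and 7.69 in tissue. All culture values lay above all tissue values, with a clear step between the sets of culture arrays. Ccn2 averaged 11.16 ± 0.71 in culture (SD, n = 6) and 7.96 ± 0.30 in tissue (SD, n = 3), a difference of 3.20 ± 0.37 or 9.17-fold, which ranked 8 among all genes. Against tissue, the fold was 14.2 with culture arrays 1 to 3 and 5.93 with culture arrays 4 to 6.

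Ccn1, the paralog, stayed within the range of the bacterial controls on all 9 arrays, as 10.2% of genes did. It read 5.42, 5.62, 5.35, 5.05, 5.03 and 5.07 in culture and 5.10, 5.23 and 5.07 in tissue, on a single probe set. Its difference of 0.12 ± 0.13 therefore gives no statement on Ccn1 RNA beyond a signal at the background of the array.

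In the test over all probe sets (limma, Benjamini-Hochberg adjusted p under 0.05), 44.6% of genes passed, 21.9% higher and 22.7% lower in culture; of probe sets, 42.2% passed, 19.7% higher and 22.5% lower. With a random block for the array sets the number of changed probe sets was 3227, against 6693 without it. Of the 6 measured members, 2 passed, Ccn2 and Tgfb2, both higher. The groups did not overlap for the same 2 members, against 44.4% of genes, 21.1% with every culture array above and 23.3% below. The median difference was 0.11 over the 6 members and -0.06 over all genes. Since the members were chosen with this contrast known, nothing is read from these counts.

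**Figure D2:**
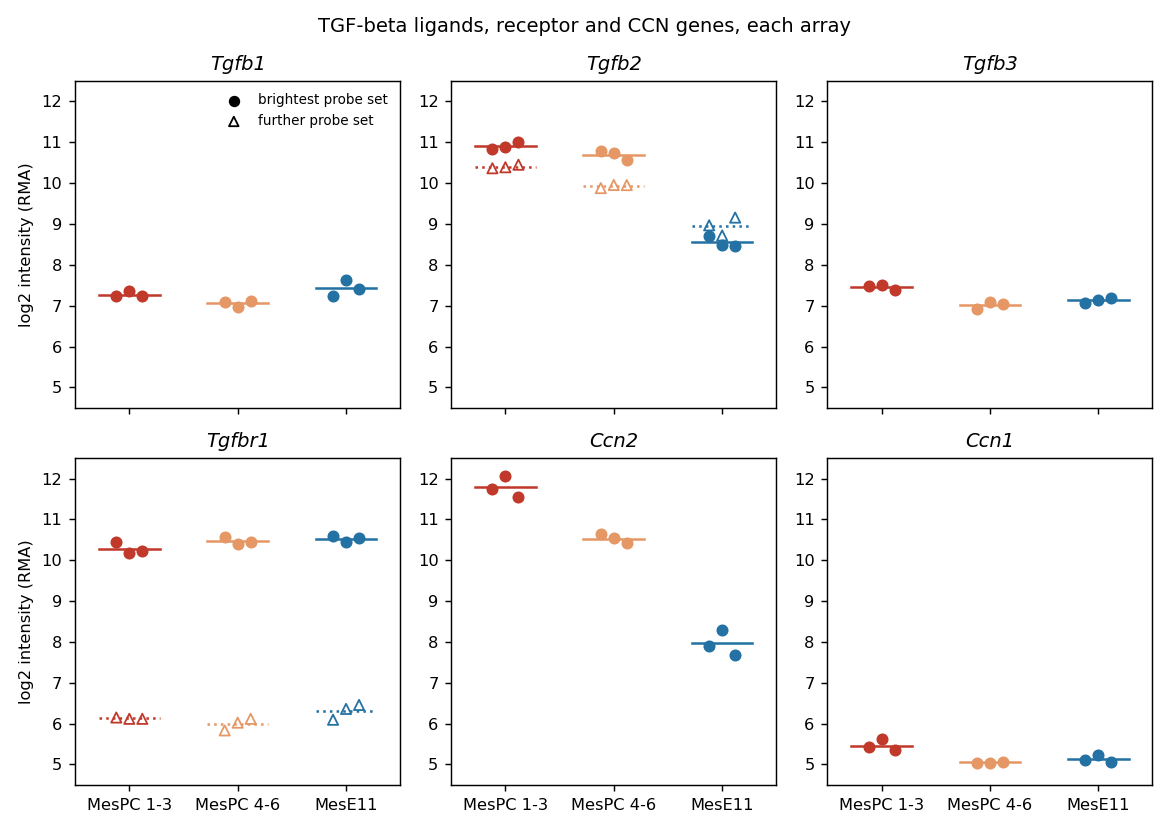
Log2 intensity (vertical axis) of the 6 measured members in culture arrays 1 to 3, culture arrays 4 to 6 and the tissue arrays, 1 point per array, lines at the mean of 3 arrays, filled circles for the brightest probe set and open triangles for a further one. Ccn2 and both Tgfb2 probe sets lie higher in all culture arrays, and Ccn2 alone shows a step of over 1 unit between the culture sets.

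The genes around the members were taken from 11 lists, of which 134 of 156 genes were measured. Of these 134, 57 rose, 19 fell and 58 did not pass, where 21.9% of all genes were higher and 22.7% lower, and the median difference was 0.17 against -0.06 over all genes. The lists were drawn up with the earlier results known.

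Genes of latency and activation rose in 10 of 14 cases, and 0 fell (median 0.65). Ltbp1, a latent TGF-beta binding protein that tethers the complex to the matrix, had values of 7.36, 7.30, 7.26, 7.48, 7.39 and 7.41 in culture and 6.59, 6.73 and 6.85 in tissue. Without overlap, Ltbp1 rose by 0.64 ± 0.07 (limma, adjusted p = 8.86e-05). Fbn1 and Fbn2, the fibrillins on which these binding proteins are laid down, rose by 1.58 ± 0.16 and 2.12 ± 0.16, though the tissue mean of Fbn2, 6.64, was inside the bacterial control span. Mmp2, a metalloproteinase that can release latent ligand, rose by 2.70 ± 0.17, while a further Mmp2 probe set fell by 0.20 ± 0.07 (limma, adjusted p = 0.0487). Plat, tissue plasminogen activator, rose by 2.09 ± 0.09. The integrins Itgav, Itgb6 and Itgb8, which activate latent ligand, were not measured.

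Receptors around Tgfbr1 moved less and mostly the other way: 5 of 10 fell and 1 rose (median -0.21). Eng, endoglin, a co-receptor of endothelial cells, read 7.82, 7.84, 7.83, 7.67, 7.66 and 7.82 in culture and 8.10, 8.29 and 8.40 in tissue, and fell by 0.49 ± 0.07 (limma, adjusted p = 0.000694). Of the endothelium markers, 5 of 7 fell and 0 rose, with a mean list level of 6.53 to 6.82 in culture and 7.74 to 7.84 in tissue, and Pecam1 stayed within the bacterial control range on all arrays; their part in the fall of Eng was not tested. Acvr2a and Acvr2b, activin type II receptors, fell by 0.39 ± 0.07 and 0.49 ± 0.14, and Acvr1c, a nodal and activin type I receptor, fell by 0.27 ± 0.07. Bambi, a decoy receptor that lacks kinase activity, rose by 0.23 ± 0.08 (limma, adjusted p = 0.0336). Tgfbr3, betaglycan, which presents Tgfb2 to the receptors, differed by -0.06 ± 0.13 and did not pass. The calls of Acvr1c and Acvr2b ended without MesE11 replicate 1 or 3 and with the random block (limma, adjusted p = 0.138 and 0.151), and that of Bambi without MesE11 replicate 3 or MesPC replicate 1, 2, 3 or 6 (limma, adjusted p of 0.0509 to 0.25 for Bambi over all alternatives that ended it). The call of Acvr1c also ended with culture arrays 1 to 3 alone, after quantile normalization again and with a replicate block. Without MesE11 replicate 3 the list held 3 calls and with a random block for the array sets 2.

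Among the Smads and their regulators 5 of 16 rose and 3 fell (median 0.09). Smad3, which carries the TGF-beta signal to DNA, had values of 9.69, 9.78, 9.69, 9.38, 9.39 and 9.24 in culture and 8.40, 8.30 and 8.49 in tissue. All culture values lay above all tissue values, and Smad3 rose by 1.13 ± 0.12 or 2.20-fold (limma, adjusted p = 6.98e-05), while a further, dimmer Smad3 probe set differed by -0.03 ± 0.11 and did not pass. Smad2, its partner, fell by 0.16 ± 0.06 (limma, adjusted p = 0.0434), a call that ended under 13 of the alternatives, among them the loss of any 1 array but MesPC replicate 4 (limma, adjusted p of 0.0509 to 0.292). Smad4, the shared partner, and Smad7, the inhibitory Smad, differed by 0.19 ± 0.10 and -0.09 ± 0.06 and did not pass. Tgif1, a corepressor of Smads, rose by 1.46 ± 0.15, Smad5, of the BMP branch, by 0.40 ± 0.07 (further probe sets 0.76 ± 0.07, which passed, and 0.13 ± 0.09, which did not) and Pmepa1, a target that dampens the pathway, by 0.47 ± 0.15. Skil, another corepressor, fell by 0.22 ± 0.08 and Ppm1a, a phosphatase, by 0.28 ± 0.09. Leaving out any 1 tissue array ended the calls of Pmepa1 and Skil, as did leaving out MesPC replicate 1 for Pmepa1 and MesPC replicate 1, 2 or 3 for Skil, and the call of Ppm1a ended without MesE11 replicate 2 or MesPC replicate 1, 2 or 5. Over the alternatives that ended them, limma's adjusted p was 0.0502 to 0.0963 for Pmepa1, 0.0695 to 0.192 for Skil and 0.0506 to 0.236 for Ppm1a. The number of calls was 5, 4 and 4 without MesE11 replicate 1, 2 and 3, and 3, 5 and 5 without MesPC replicate 1, 2 and 3; with the random block it was 3.

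In the activin branch 1 of 10 rose and 3 fell (median -0.14). Fstl1, a secreted follistatin-like glycoprotein, rose by 1.80 ± 0.21, and its further probe sets rose too, by 1.41 ± 0.12 and 1.85 ± 0.16. Fst, follistatin, which sequesters activin, fell by 0.47 ± 0.07, Inha, the inhibin alpha subunit, fell by 0.47 ± 0.07, and Mstn, whose values all lay within the bacterial control range, fell by 0.24 ± 0.05 (limma, adjusted p = 0.101 with the random block). Inhba, the activin A subunit, differed by -0.15 ± 0.08 and did not pass.

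Transcripts known to respond to TGF-beta rose in 16 of 23 cases and fell in 0 (median 1.10). Bhlhe40, counted among those that rose, differed by 0.27 ± 0.08 but lay within the bacterial control range on all arrays. Of the 23, 7 also stand among the fibroblast or smooth muscle markers, Col1a1, Col1a2, Col3a1, Acta2, Tagln, Cnn1 and Postn; of the other 16, 11 rose (median 0.70). Col3a1, Col1a2 and Col1a1, fibrillar collagen chains, rose by 5.56 ± 0.13, 4.28 ± 0.10 and 3.39 ± 0.13. Tgfbi, an extracellular protein named for its induction by TGF-beta, had values of 8.37, 8.39, 8.32, 7.68, 7.95 and 7.43 in culture and 7.16, 6.82 and 6.79 in tissue. The culture values lay above the tissue values throughout, and Tgfbi rose by 1.10 ± 0.22 or 2.14-fold (limma, adjusted p = 0.00303). Tagln, transgelin of contractile cells, rose by 2.21 ± 0.51. Acta2, smooth muscle actin, differed by -0.04 ± 0.09 and did not pass, nor did Cnn1, calponin, at 0.04 ± 0.08 and inside the bacterial control span on all arrays. Of the smooth muscle and pericyte markers, 2 of 10 rose, Tagln and Myl9, and 4 fell, with the list at 7.33 to 7.75 in culture and 7.62 to 7.78 in tissue. The fibroblast markers, higher in 12 of 14 cases as given above, moved with this list, and their part in it was not tested.

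Of the Hippo pathway, Yap and Tead genes, 10 of 18 rose and 1 fell (median 0.46). Tead1, a DNA-binding partner of Yap, had values of 11.05, 11.11, 11.09, 10.82, 10.89 and 10.81 in culture and 9.45, 9.33 and 9.22 in tissue. Without overlap, Tead1 rose by 1.63 ± 0.09 or 3.09-fold (limma, adjusted p = 8.65e-07), and a further probe set rose by 1.33 ± 0.10. F3, tissue factor, rose by 1.52 ± 0.19 and Ajuba, an adaptor that restrains the Lats kinases, by 1.35 ± 0.19. A further Ajuba probe set rose less, by 0.69 ± 0.24 (limma, adjusted p = 0.0449). Stk3, a Hippo kinase, rose by 1.32 ± 0.18. Its paralog Stk4, the one gene of the list to fall, fell by 0.26 ± 0.05, and lost its call with the random block (limma, adjusted p = 0.0514). Ankrd1, a further textbook Yap target, lay within the bacterial control range on all arrays and did not pass (-0.05 ± 0.08), a further Ankrd1 probe set passed at -0.26 ± 0.08 but also lay in that range on all arrays, and Yap1 was not measured. With the random block 7 genes of the list passed.

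Relatives of the matricellular members differed from one another. Ccn3, a CCN protein found in the nervous system, had values of 9.15, 9.13, 9.05, 9.62, 9.99 and 10.04 in culture and 7.98, 8.06 and 8.17 in tissue, and rose by 1.43 ± 0.23 or 2.69-fold (limma, adjusted p = 0.000957). Its culture sets ran opposite to those of Ccn2, with arrays 4 to 6 the higher. Ccn5, in the bacterial control range throughout, fell by 0.17 ± 0.06 (limma, adjusted p = 0.0355), a call lost on leaving out any of the 3 tissue arrays, MesPC replicate 5 or MesPC replicate 6, and with the random block (limma, adjusted p = 0.224). The call of Ccn5 was also lost with culture arrays 1 to 3 alone, after quantile normalization again and with a replicate block. Among the other thrombospondins and thrombospondin receptors, 2 of 8 rose and 1 fell (median -0.03). Lrp1, an endocytic receptor that clears thrombospondin 1, rose by 0.57 ± 0.08, and Sdc4, a syndecan, by 0.51 ± 0.11. The thrombospondin receptors Cd47 and Cd36 differed by -0.22 ± 0.15 and 0.00 ± 0.04 and did not pass, with Cd36 in the bacterial control range; a further probe set of Cd47 fell by 0.40 ± 0.07. Thbs2 was not measured.

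Other matricellular genes rose in 5 of 10 cases and fell in 2 (median 0.76), among them Postn, periostin, by 2.06 ± 0.10, Fbln1, fibulin 1, by 1.80 ± 0.21, Sparcl1 by 1.26 ± 0.09 and Sparc, osteonectin, by 1.19 ± 0.09. Spp1, osteopontin, fell by 0.36 ± 0.11 and Tnr, tenascin R, which lay in the bacterial control range, by 0.29 ± 0.06. With the random block both calls were lost (limma, adjusted p = 0.211 for Spp1 and 0.0669 for Tnr), and that of Spp1 also without MesE11 replicate 3. Postn and Fbln1 also stand among the fibroblast markers, and without them 3 of 8 genes rose and 2 fell (median 0.29). Of the proteoglycans that bind TGF-beta, 4 of 6 rose and 0 fell (median 0.56). Lum, lumican, rose by 5.26 ± 0.13, with its tissue mean of 6.16 inside the bacterial control span, Dcn, decorin, by 2.32 ± 0.14, Bgn, biglycan, by 0.93 ± 0.12 and Vcan, versican, by 0.20 ± 0.06 (limma, adjusted p = 0.0329). The call of Vcan ended under 9 alternatives: the random block (limma, adjusted p = 0.255), quantile normalization again, centring on the median, either culture set alone, and the loss of MesE11 replicate 2 or 3 or MesPC replicate 1 or 6. Of 4 further Vcan probe sets, 2 stayed in the bacterial control range on all arrays and the other 2 rose, by 0.66 ± 0.09 and 0.90 ± 0.12. Dcn and Lum are fibroblast markers too, and without them 2 of 4 proteoglycan genes rose and 0 fell (median 0.17). Of the immediate early genes 3 of 17 rose and 3 fell (median -0.11), no larger a share than the 21.9% higher and 22.7% lower of all genes: Egr1 rose by 1.04 ± 0.25, Ier3 by 0.92 ± 0.17 (tissue mean 6.63, inside the bacterial control span) and Jun by 0.39 ± 0.07, whereas Jund fell by 0.92 ± 0.24 (a further probe set, at -0.18 ± 0.08 and in the bacterial control range, did not pass) and Dusp1 by 0.62 ± 0.12. The call of Jund ended without MesE11 replicate 2 (limma, adjusted p = 0.0559).

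**Figure D3:**
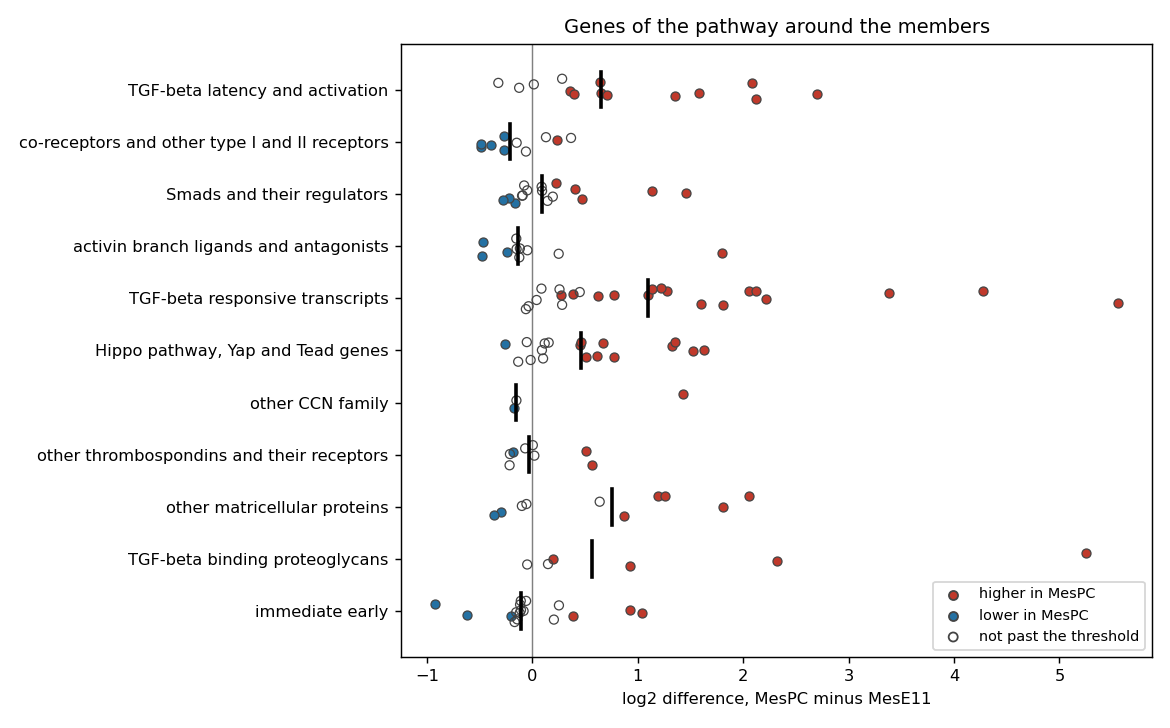
Log2 difference, MesPC minus MesE11 (horizontal axis), of each measured gene in the 11 lists, filled red where higher and blue where lower past the threshold, open where not, with a bar at the list median. The responsive transcripts have the highest median, 1.10, and the co-receptors and other receptors the lowest, -0.21.

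Within the cultures, Ccn2 was the member that parted most by array number. It averaged 11.79 ± 0.25 in arrays 1 to 3 and 10.53 ± 0.11 in arrays 4 to 6 (SD, n = 3 each), a difference of 1.26 or 2.39-fold, which ranked 14 among 10411 genes. In that direction 27 genes, or 0.259%, had a difference of 1 or more. Ccn2 was chosen with this split in view, so its rank is a description and nothing is read from it. The other members with higher values in every array of 1 to 3 were Tgfb3 (7.45 ± 0.07 against 7.01 ± 0.08, difference 0.44), Ccn1 (5.46 ± 0.14 against 5.05 ± 0.02, difference 0.41, at background), Tgfb2 (10.91 ± 0.09 against 10.69 ± 0.11, difference 0.22) and Tgfb1 (7.27 ± 0.07 against 7.06 ± 0.09, difference 0.21). The further Tgfb2 probe set gave 10.40 ± 0.04 against 9.93 ± 0.04. Tgfbr1 overlapped between the sets, with a difference of -0.19. For 5 of 6 members the sets did not overlap, against 48.4% of all genes, 26.0% with arrays 1 to 3 above and 22.4% below. The split was noticed in these data and no label accounts for it, so it was not tested, and nothing is read from these counts.

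Around the members, 72 of the 134 pathway genes read higher in every array of 1 to 3 than in any of 4 to 6, and 10 read lower throughout. Over all genes, 26.0% read higher and 22.4% lower in this way, the shares to set beside each list count below. Tagln stood furthest apart, at 9.88, 10.07 and 9.91 in arrays 1 to 3 and 8.45, 8.20 and 7.75 in arrays 4 to 6, a difference of 1.82. Lox, the collagen cross-linking enzyme lysyl oxidase, picked after its values were seen, differed by 1.15, Egr1 by 0.87 and Tgfbi by 0.67. Of the responsive transcripts, 14 of 23 were higher in all of arrays 1 to 3 and 0 lower, and of the Hippo list 14 of 18 were higher and 1 lower. The collagens did not follow: Col3a1, Col1a2 and Col1a1 overlapped between the sets, with differences of -0.02, -0.14 and -0.15. The lean was not confined to these lists: immediate early genes were higher in arrays 1 to 3 in 11 of 17 cases and lower in 0. Latency and activation genes were higher there in 8 of 14 cases and lower in 1, and proteoglycans in 4 of 6 and 0. Smads and their regulators were higher in 5 of 16 and lower in 3, and the activin branch in 2 of 10 and 2. Of the fibroblast markers 6 of 14 were higher in arrays 1 to 3 and 1 lower, and of the neuron markers 9 of 9 were lower there (median difference -1.12). Smooth muscle and pericyte markers, which include Tagln, were higher in arrays 1 to 3 in 7 of 10 cases and lower in 0, and astrocyte markers in 5 of 10 and 1. Endothelium markers were higher there in 4 of 7 cases and lower in 0. Their part in the split of Ccn2 was not tested.

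**Figure D4:**
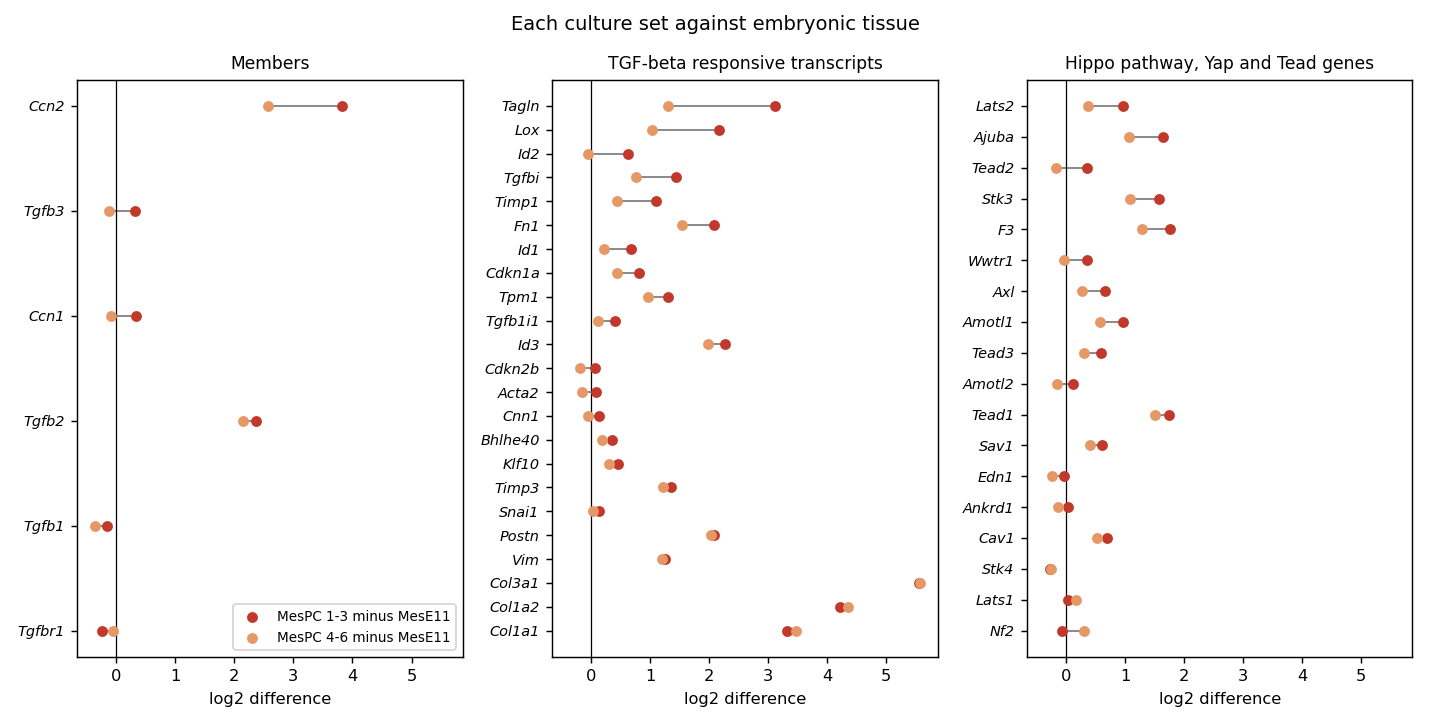
Log2 difference from the MesE11 mean (horizontal axis) for culture arrays 1 to 3 (red) and 4 to 6 (orange), joined by a line, for the 6 members, the responsive transcripts and the Hippo list, each sorted by the gap between the sets. Ccn2 (1.26), Tagln (1.82) and Lox (1.15) have the widest gaps, while Col3a1 has almost none (-0.02).

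The genes whose 9 values were most like those of Ccn2, by the root mean square difference after each gene was centred on its own mean, were Tril (0.38), Egfr (0.41), Mmp2 (0.45), Lgals1 (0.47) and Mtmr10 (0.50). Tril, a Toll-like receptor accessory protein, averaged 11.82 in culture arrays 1 to 3, 10.28 in culture arrays 4 to 6 and 8.57 in tissue, and Egfr, the epidermal growth factor receptor, averaged 10.13, 8.89 and 7.05. Both also parted between the culture sets, by 1.54 and 1.24, while Lgals1, galectin 1, parted by 0.35. The same measure for Tgfb2, added after the values were seen, gave closer matches: Kitlg (0.10), the ligand of the Kit receptor, Metrn (0.11), Anxa11 (0.12), Col6a2 (0.12) and Gpc3 (0.14). These genes differed between culture and tissue by 2.13 to 2.44. Both sets of genes were picked by likeness over the same 9 arrays, so gaps like those of Ccn2 or Tgfb2 come with the choice and nothing is read from them.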

How the data were processed

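The deposited table holds log2 intensities that the authors made with RMA, per the submitters' processing notes, without a version. RNA came from a Tri-Reagent extraction and carried a biotin label, per the labels' protocols. Array medians lay between 8.60 and 8.66. The 57 control probe sets were left out, and 15866 were tested. The array annotation gave 12783 of these 1 symbol and 312 several, and 2771 were not listed; a RefSeq gene table (GRCr8) matched 12748 by gene ID and changed 0 symbols. Each gene was read from its brightest probe set (mean of 9 arrays), with any others as a check.

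limma 3.58.1 in R 4.3.3 (lmFit, eBayes) compared MesPC with MesE11, two-sided, with Benjamini-Hochberg adjustment over all tested probe sets and a threshold of 0.05. It was tested on simulated data. Errors after a difference are its moderated standard errors. The number of arrays limits the precision. Culture arrays 1 to 3 and 4 to 6 were described without a test. Members and lists were chosen with earlier results of these data known. Named were fixed pathway genes and, from each list, up to 4 called genes in its main direction and up to 2 in the other, by size and without overlap between the groups; a gene named otherwise was chosen after its values were seen. Alternatives were quantile normalization again, centring, a filter on dim probe sets, each array left out, each culture set alone, a replicate block, a random block, an intensity trend and averaging all probe sets of a gene. Promoter windows came from RefSeq and all 8 genes matched. Plots used matplotlib 3.10.9.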

Additional observations from a re-analysis of the deposited data

Results flagged for a closer look

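Some genes lay on opposite sides of the tissue mean in culture arrays 1 to 3 and 4 to 6, a contrast between the sets that was not tested. Tgfb3 was 0.32 above the MesE11 mean in arrays 1 to 3 and -0.12 from it in arrays 4 to 6, a gap of 0.44. Ccn1 gave 0.33 and -0.09, a gap of 0.41, inside the bacterial control span. Tgfbr3 gave 0.10 and -0.22, a gap of 0.33.

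In 5 of 90 genes looked at, 1 culture array stood far from the other 5, and chance flags about 1 in 20 groups. Sparcl1 read 12.44 in culture array 2, with the next value at 12.64. Vcan read 10.00 in array 1 (next 9.88), Abcc9 5.93 in array 5 (next 5.80), Mlc1 10.58 in array 6 (next 10.76) and Pf4 7.19 in array 4 (next 7.39).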

How the results depend on the processing

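With culture arrays 1 to 3 alone the differences from tissue were 3.83 (Ccn2), 0.33 (Ccn1) and 0.32 (Tgfb3), and with arrays 4 to 6 alone 2.57, -0.085 and -0.12. When all probe sets of a gene were averaged Tgfb2 gave 1.74, and between the culture sets Tgfb2 gave 0.35 and Tgfbr1 -0.026. After quantile normalization again the sets differed by 0.12 (Tgfb1) and 0.36 (Tgfb3). A filter on the dimmest 40% of probe sets kept 3 of the 6 members. The random block (correlation 0.447) gave 3227 changed probe sets against 6693 without it, 2 calls in the co-receptor list, 3 among Smads, 7 in the Hippo list and 1 in the CCN list. Quantile normalization again gave 3 co-receptor calls and 1 CCN call, and the dim filter 3, 1 (activin branch) and 1 (CCN). Culture arrays 1 to 3 alone gave 1 CCN call and 5 thrombospondin calls, and arrays 4 to 6 alone 10 immediate early calls. The dim filter takes dim genes out of the lists, so its counts cover fewer genes. Of the 49 named genes it kept, 0 lost their call. The cause of the other shifts was not tested. Of 84 named genes, 17 lost their call under some alternative and 0 reversed. Some of the 84, among them Smad4 and Tgfbr3, had no call to lose, and genes that the dim filter took out were not tested there.

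Leaving out each array gave 4725 to 6557 changed probe sets, and differences from tissue of 3.02 to 3.36 (Ccn2), 2.20 to 2.33 (Tgfb2), 0.05 to 0.17 (Ccn1 and Tgfb3), -0.35 to -0.15 (Tgfb1) and -0.19 to -0.11 (Tgfbr1). Between the culture sets the range was 1.13 to 1.38 for Ccn2. Calls numbered 3 to 7 for co-receptors, 3 to 8 for Smads and 1 to 2 for the CCN list.

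Same-numbered tissue and culture arrays deviated from their group means with r of 0.08, -0.12 and -0.11. For differently numbered arrays r ran from -0.18 to 0.26. The arrays were therefore not paired by number in the main fit, though these values do not show whether same-numbered arrays share an embryo group. With the replicate block, which uses culture arrays 1 to 3 only, the differences were 3.83 (Ccn2), 0.33 (Ccn1) and 0.32 (Tgfb3), and 1 CCN gene passed.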
